A study of Mus musculus with 7 samples.

Results

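Kruppel-like factors are transcription factors whose zinc fingers bind GC-rich and CACCC-containing DNA. The 9 members described here are those with a role or clear expression in endothelium: Klf2, Klf3, Klf4, Klf6, Klf7, Klf9, Klf10, Klf11 and Klf13. They were found by gene symbol among the 30899 genes of the deposited tables, and all 9 passed the filter on low values that left 16931 genes for testing. The libraries came from mouse skeletal muscle endothelial cells that were isolated with beads, left untreated and lysed directly. The wild-type group held 3 libraries. The other group held 4 libraries whose labels give an endothelial knockout of GLUT1, the glucose transporter encoded by Slc2a1. The sources used here do not give strain, age, sex, the Cre line or the deleted exons. Nothing in the labels states that the libraries are from separate animals, and the p-values below therefore cover the spread among these 7 libraries alone.

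In endothelium, steady laminar blood flow is known to raise Klf2 and Klf4 through a MEK5, ERK5 and MEF2 cascade. Both factors favour a quiescent, anticoagulant and anti-inflammatory state. Klf6 is linked to the response to vessel injury and to TGF-beta receptor genes, Klf10 and Klf11 are TGF-beta-inducible repressors that recruit Sin3, and Klf3 represses through CtBP. Klf9 responds to glucocorticoid and thyroid hormone in several tissues, Klf13 is known from T cells, and Klf7 from neuronal development in mice.

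The promoters of the flow-responsive pair are shown because MEF2 is the textbook link between flow and these genes. Each is the 250 bases upstream of the RefSeq start in build GRCm38.p6, read 5′ to 3′ on the gene's strand, and capitals mark a match to the MEF2 consensus, a site of 10 letters searched on both strands.
Klf2, chr8:72318812-72319061, plus strand: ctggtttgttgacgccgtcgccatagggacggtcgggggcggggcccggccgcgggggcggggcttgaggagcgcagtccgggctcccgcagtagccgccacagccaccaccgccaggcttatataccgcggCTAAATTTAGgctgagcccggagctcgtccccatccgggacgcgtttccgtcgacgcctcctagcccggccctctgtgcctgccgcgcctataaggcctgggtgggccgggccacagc
Klf4, chr4:55532476-55532725, minus strand: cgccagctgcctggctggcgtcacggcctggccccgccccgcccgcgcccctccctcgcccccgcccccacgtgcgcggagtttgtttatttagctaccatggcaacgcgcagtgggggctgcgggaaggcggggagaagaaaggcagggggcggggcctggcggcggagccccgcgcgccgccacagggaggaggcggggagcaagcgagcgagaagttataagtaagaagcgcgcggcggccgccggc
The Klf2 window held 1 MEF2 match, from -118 to -109 relative to the start, and the Klf4 window held none. A match stood in 2.92% of the 32851 promoters in the table. Promoters were at hand for 8 of the 9 members. The GC box GGGCGG, which Sp and Kruppel-like factors bind, was found in 7 of these 8 windows, all but that of Klf9, and in 32.7% of all promoters. The G and C content of the 8 windows ran from 59.2% to 78.4%, and promoters of like content were not compared. The CACCC letters were found in 5 of the 8, namely Klf2, Klf3, Klf7, Klf9 and Klf13, and in 52.0% of all promoters. The E box CACGTG had 1 match each in Klf4, Klf6 and Klf11, against 6.02% of all promoters. The other motifs searched were a CRE site of 5 letters, the TATA box and the CArG box. The CRE site had 1 match each in Klf2, Klf4, Klf9 and Klf13, against 17.8% of all promoters. The TATA and CArG boxes had no match in the 8 windows, against 12.4% and 1.47% of all promoters. These shares were not tested. These are letter matches in a short window and say nothing of whether a factor bound there.

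Klf4 was the member that passed the test, and it was lower with the knockout label. Normalised counts, which are the authors' expression values per gene scaled between libraries, stood for Klf4 at 9900.5, 11934 and 11695 in the wild-type libraries against 7388, 7088, 8522 and 6811 in those labelled knockout. The groups did not overlap. The mean went from 11177 ± 1112 (SD, n = 3) to 7452 ± 751 (SD, n = 4), 66.7% of the wild-type level. The log2 fold change was -0.58 (SE 0.13, 95% interval -0.86 to -0.31, limma adjusted p = 0.0189). Klf4 passed again with 6 of the 7 libraries left out in turn, and without library 4 labelled knockout it had an adjusted p of 0.0526. In bulk libraries, fewer cells of a type and less RNA per cell cannot be told apart.

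Klf2, the other flow-responsive factor, had the most variable wild-type values. They stood at 13114, 18068 and 21647 normalised counts, against 12936, 13130, 13674 and 11943 with the knockout label. The lowest wild-type library lay among the libraries labelled knockout, so the groups overlapped. The wild-type values spread by 24.3% of their mean (coefficient of variation) and the others by 5.59%. The log2 fold change was -0.42 (SE 0.16, 95% interval -0.75 to -0.08) and did not pass the test (adjusted p = 0.0879). Without wild-type library 1 it was -0.62, and without wild-type library 3 it was -0.25.

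**Figure D1:**
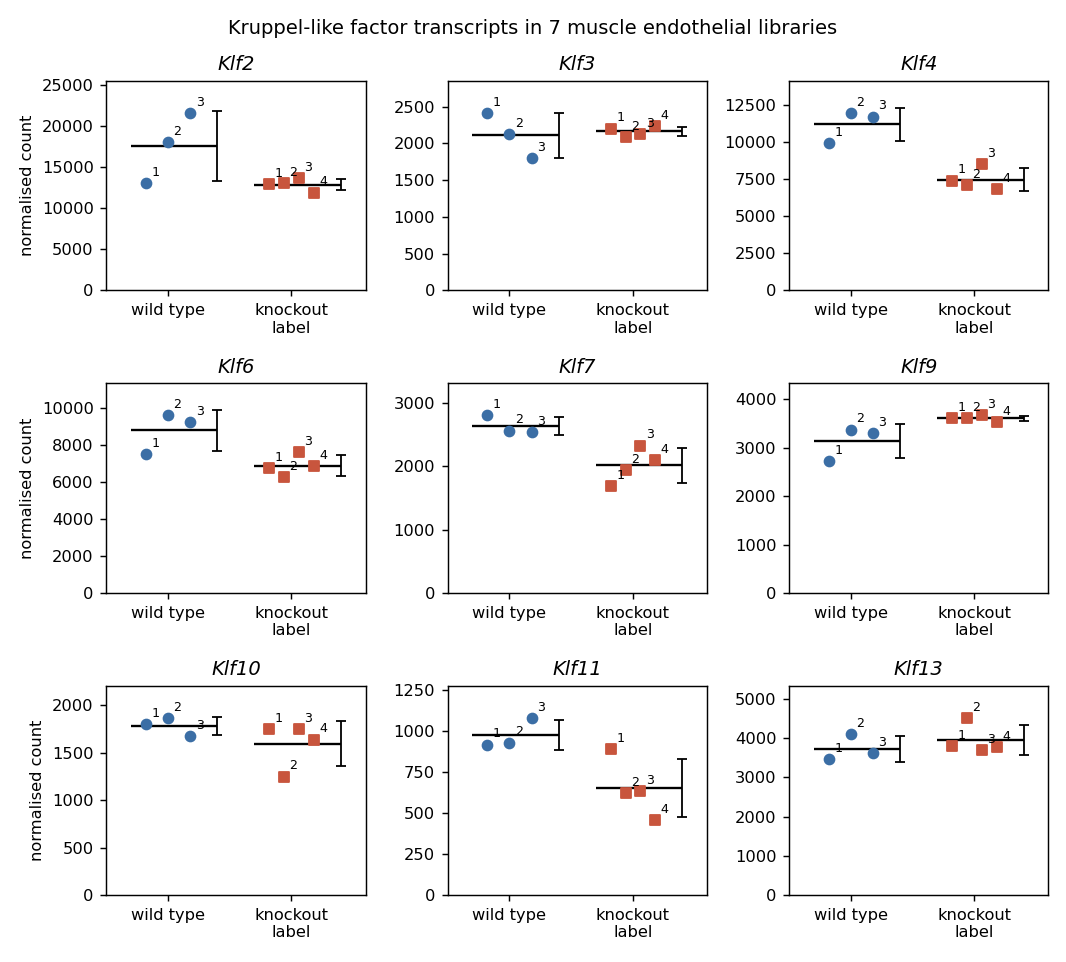
Normalised counts of the 9 Kruppel-like factors in each library, with 1 numbered point per library, a horizontal line at the group mean and a bracket of 1 SD on either side, for 3 wild-type and 4 libraries labelled knockout. Klf4 lies between 9900.5 and 11934 in wild type and between 6811 and 8522 in the other group, while the lowest wild-type value of Klf2 lies among those of the other group.

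Klf6, the injury-linked factor, had wild-type normalised counts of 7525, 9598 and 9241, against 6734, 6268, 7632 and 6865 with the knockout label. A single pair of libraries overlapped, the third labelled knockout being just above the first wild type. The log2 fold change was -0.35 (SE 0.13, 95% interval -0.62 to -0.08) and did not pass (adjusted p = 0.083). Klf11, a TGF-beta-inducible repressor, had wild-type normalised counts of 919, 931 and 1081, against 891, 623, 637 and 461. The groups did not overlap, with the first library labelled knockout close to wild type and the fourth the lowest of all. Its log2 fold change of -0.62 (SE 0.19, 95% interval -1.03 to -0.21) was the lowest estimate of the 9 and just missed the threshold (adjusted p = 0.0509). Klf10, its closest relative, had normalised counts of 1802, 1867 and 1676 against 1753, 1251, 1747 and 1639. Those groups overlapped, with a log2 fold change of -0.17 (95% interval -0.47 to 0.14, adjusted p = 0.426). Without library 2 labelled knockout it was -0.056.

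Klf7 had wild-type normalised counts of 2801, 2563 and 2537, against 1688, 1936, 2326 and 2099 with the knockout label. Every library labelled knockout lay below every wild-type library. The log2 fold change was -0.40 (SE 0.13, 95% interval -0.68 to -0.11), which did not pass (adjusted p = 0.0649). An antisense gene, Gm13748, overlaps Klf7 in the GENCODE vM21 annotation, and it lay at 17.5 or lower in every library.

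Klf9, Klf3 and Klf13 gave estimates above 0, and none passed the test. Klf9, the hormone-responsive member, had wild-type normalised counts of 2731, 3376 and 3299, against 3617, 3612, 3670 and 3533 with the knockout label. Every library labelled knockout was above every wild-type library, and those 4 values had a coefficient of variation of 1.57%. The log2 fold change was 0.21 (95% interval -0.05 to 0.46, adjusted p = 0.237), and with all libraries set to equal totals it was -0.017. Without wild-type library 1 it was 0.11. Klf3, the CtBP-dependent repressor, had normalised counts of 2412, 2123 and 1798 against 2201, 2087, 2130 and 2229. The wild-type values enclosed all of the others, and the log2 fold change of 0.04 (95% interval -0.23 to 0.32) turned to -0.18 with equal totals. Klf13 had normalised counts of 3467, 4091 and 3610 against 3789, 4511, 3694 and 3768, with a log2 fold change of 0.08 (95% interval -0.18 to 0.35) that turned to -0.14 with equal totals. Other annotated genes share part of the Klf3 and Klf13 loci. The most abundant of them in the tables were C230096K16Rik at Klf3, at 96.5 normalised counts or lower, and E030018B13Rik at Klf13, at 54.9 or lower. The sources used here do not say how strands were handled.

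**Figure D2:**
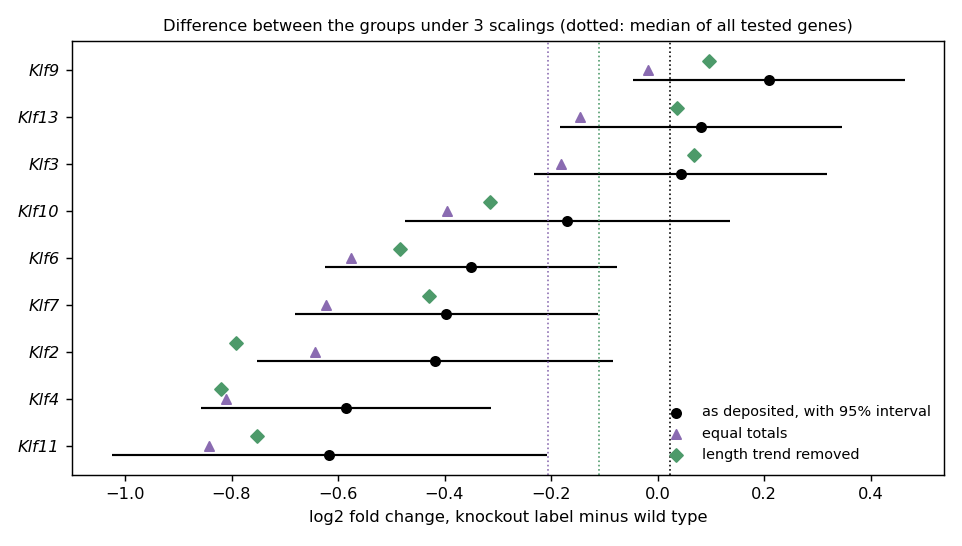
Log2 fold change of each member, libraries labelled knockout minus wild type, as deposited (circles, with the 95% interval of the limma fit of 3 against 4 libraries), with equal totals (triangles) and with a trend on exonic length removed (diamonds). Dotted lines mark the median of all tested genes under each scaling, at 0.02, -0.21 and -0.11. Klf4 at -0.58 is the member past the threshold as deposited, and the interval of Klf11 reaches from -1.03 to -0.21.

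Over the 9 members, 1 (11.1%) was lower at an adjusted p under 0.05, where 5.53% of all tested genes were. None was higher, where 5.98% of all tested genes were. At an unadjusted p under 0.05, 5 members were lower (55.6%, namely Klf2, Klf4, Klf6, Klf7 and Klf11) beside 15.9% of all tested genes, and 0 were higher beside 16.4%. Groups did not overlap for 3 members in the lower direction (33.3%) beside 14.1% of all genes, and for 1 in the higher direction (11.1%) beside 14.7%. The median log2 fold change of the members was -0.35, and that of all tested genes was 0.02. With so few members these shares rest on 1 to 5 genes, and a member that did not pass is not shown to be the same in both groups.

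The scaling between libraries bears on every one of these differences. With equal totals, 228 genes were higher and 1645 lower, against 1013 and 936 with the deposited scaling, and the median of all tested genes moved from 0.02 to -0.21. Equal totals multiplies each library by 1 factor, so it moves all genes nearly alike and leaves their places relative to that median nearly as they were, which holds by construction. Relative to it Klf4 stood at -0.61, Klf11 at -0.64, Klf2 at -0.44, Klf9 at 0.18, Klf13 at 0.06 and Klf3 at 0.02 with the deposited scaling. Quantile normalization, which does not move all genes alike, put them at -0.81, -0.77, -0.69, 0.03, -0.09 and -0.13 in the same order. With a trend on exonic length removed, an alternative added after the data were seen, the median of all tested genes was -0.11, and Klf2, whose exons are the shortest of the 9, stood at -0.68 against it.

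The ratio of 2 members within a library is free of scaling. For Klf4, the member that passed the test, 4 of the 8 ratios to other members did not overlap between groups, those to Klf3, Klf6, Klf9 and Klf13, and those to Klf2, Klf7, Klf10 and Klf11 overlapped. The log2 ratio of Klf4 to Klf6 was 0.40, 0.31 and 0.34 in wild type, against 0.13, 0.18, 0.16 and -0.011 with the knockout label. That of Klf2 to Klf4 was 0.41, 0.60 and 0.89, against 0.81, 0.89, 0.68 and 0.81. Of all 36 pairs of members, 12 (33.3%) gave ratios that did not overlap, beside 27.8% of all pairs of genes with a mean of at least 500, so the share is near the background. Klf9, whose counts were higher in every library labelled knockout, was in 6 of these 12, and the 28 pairs without it gave 6 (21.4%).

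Levels of different genes were compared per kilobase of exon, taken as all annotated exons of a gene together. These ran from 1.85 kb for Klf2 to 11.2 kb for Klf3. The length of the transcript present in the cells was not known, so the order depends on the annotation. Each gene has the same divisor in every library. Klf2 was the most abundant member, at 9534 ± 2320 normalised counts per kilobase in wild type and 6996 ± 391 in the libraries labelled knockout. Klf4 followed at 3666 ± 365 and 2444 ± 246, and Klf6 at 2001 ± 252 and 1566 ± 129. Klf9 was at 651 ± 73.2 and 749 ± 11.8, Klf13 at 494 ± 43.4 and 523 ± 50.8, and Klf10 at 426 ± 23.3 and 382 ± 56.7. The lowest were Klf7 at 324 ± 17.9 and 247 ± 33.1, Klf11 at 225 ± 20.8 and 150.4 ± 41, and Klf3 at 188 ± 27.3 and 192 ± 5.75 (SD, n = 3 and n = 4). Down to Klf7 the order was the same in all 7 libraries. Klf11 and Klf3 changed places, with Klf11 above Klf3 in 2 of 3 wild-type libraries and in 1 of 4 labelled knockout.

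**Figure D3:**
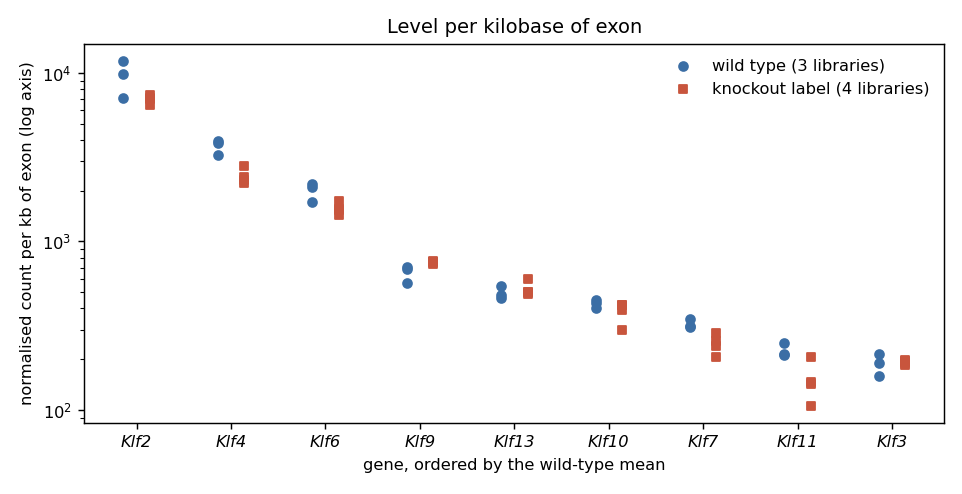
Normalised counts per kilobase of exon for the 9 members in each library, on a log axis, with points for 3 wild-type and 4 libraries labelled knockout. Klf2 stands highest at a wild-type mean of 9534 and Klf3 lowest at 188.

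Klf2, Klf4 and Klf6 together made up 68.4%, 72.6% and 75.3% of the summed normalised counts of the 9 members in the wild-type libraries. With the knockout label they made up 66.0%, 65.4%, 67.7% and 65.1%. The groups did not overlap in this share, which was not tested. It is made of the counts given above, uncorrected for exon length, and is no separate result. The sum of all 9 was 44672.5, 54552 and 56583 for the wild-type libraries, against 40997, 40506, 44031 and 39347.

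Of 10 tested genes known to be raised by Klf2 or Klf4 in endothelium, 4 were higher and 0 lower, with a median log2 fold change of 0.28. Of all tested genes, 5.98% were higher and 5.53% lower, with a median of 0.02, and the counts of the lists below stand beside the same shares. The 10 endothelial markers had a median of 0.26, with 9 estimates above 0, so a median of this size was not particular to these targets. The gap junction gene Gja4 went from 698 ± 94 to 1197 ± 150 (SD, n = 3 and n = 4; log2 fold change 0.78, SE 0.15, adjusted p = 0.013). Ass1, of arginine recycling, rose by a log2 fold change of 0.62 (SE 0.17), Plpp3, which degrades lysophosphatidic acid, by 0.51 (SE 0.15) and Sema7a by 0.42 (SE 0.13). Nos3, the endothelial nitric oxide synthase, had an estimate of -0.24 (adjusted p = 0.172). These calls depended on the setting: none of the 10 passed without wild-type library 1, 1 passed without wild-type library 3 or library 4 labelled knockout, 2 passed without library 1 or 2 labelled knockout, and with equal totals Gja4 was higher and Nos3 lower. With the length trend removed 0 were higher and Nos3 was lower, with Gja4 at 0.38 (adjusted p = 0.133), and none of the 10 passed with no filter, without the limma trend, with the replicate block or with the receptor genes as a covariate. Of 11 genes that Klf2 or Klf4 are known to repress, 1 was lower and 0 were higher by limma (2 and 3 at an unadjusted p under 0.05), with a median of 0.30. Without wild-type library 1 none of the 11 passed, where 0.12% of all tested genes were higher and 0.15% lower. Lost calls in settings with few calls of any kind are not particular to either list.

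Among 13 genes of flow sensing and the ERK5 pathway, 1 was lower, the mechanosensitive channel Piezo1. It went from 5388 ± 165 to 4042 ± 381 (log2 fold change -0.42, SE 0.12, adjusted p = 0.041), a call lost when any 1 of the 7 libraries was left out. The median of the list was -0.04. Mapk7, which encodes ERK5, had an estimate of 0.05 and Mef2c of 0.10. Of 6 genes that Klf6 is known to activate, the TGF-beta family receptor Acvrl1 was higher (3250 ± 173 to 4351 ± 340, log2 fold change 0.42, adjusted p = 0.038), a call that held in 1 of the 7 fits with a library left out. Of 8 early TGF-beta and BMP targets, Id2 (log2 fold change 0.75) and Bambi (0.58) were higher, and neither passed without wild-type library 1. Of 7 corepressor genes, Hdac2 was higher (679 ± 89.9 to 980 ± 55.2, log2 fold change 0.53, adjusted p = 0.031), which held in 1 of the 7 such fits. Over these 7 fits, 0.12% to 5.90% of all tested genes were higher and 0.15% to 6.57% lower, both fewest without wild-type library 1.

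Of 7 glucocorticoid-responsive genes, the clock gene Per1 was lower, from 7287 ± 765 to 3905 ± 483 (log2 fold change -0.90, SE 0.13, adjusted p = 0.005), and the list's median was -0.13. The list did not move in 1 direction, as 3 of the 7 estimates were above 0. They were Tsc22d3 at 0.41 (limma adjusted p = 0.087), Fkbp5 at 0.25 and Nr3c1 at 0.14, and none of them passed. Of 24 tested immediate early genes, 4 were lower and 0 higher, with a median of -0.23, where 5.53% of all tested genes were lower and 5.98% higher. The 4 were Egr3 (log2 fold change -2.19), Nr4a1 (-0.91), Nr4a3 (-0.89) and Fosl2 (-0.82). Leaving out wild-type library 1 gave a count of 1 lower, leaving out wild-type library 3 gave 7, and equal totals gave 11. In these settings 0.15%, 3.97% and 9.61% of all tested genes were lower, in the same order. Among the 4 ubiquitin ligase genes listed for Kruppel-like factor turnover none passed, with Wwp1 at 0.36 (adjusted p = 0.110) and Smurf1 at -0.16 (adjusted p = 0.392).

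**Figure D4:**
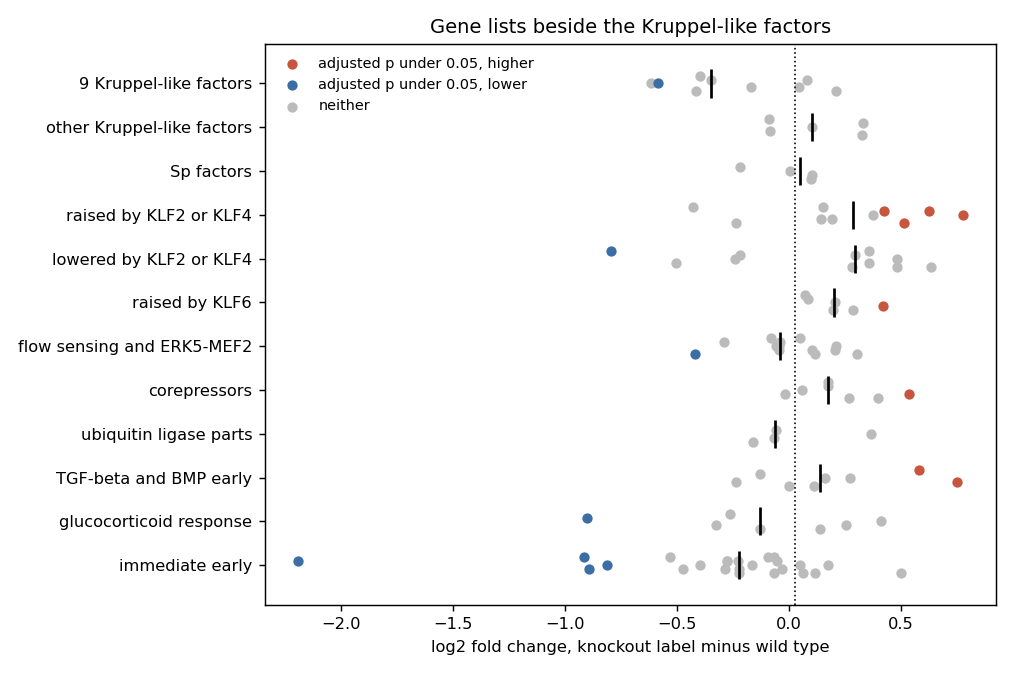
Log2 fold changes, libraries labelled knockout minus wild type, of the members and of the gene lists read beside them, with 1 point per tested gene and a bar at each median, where blue and red mark genes past the adjusted threshold and the dotted line is the median of all tested genes. The median of the 9 members is -0.35, that of the genes raised by Klf2 or Klf4 is 0.28 and that of the immediate early genes is -0.23.

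Of the 8 other Kruppel-like factor genes in the tables, 5 were tested and none passed in either direction by limma, at an adjusted or an unadjusted p under 0.05. Klf15 was estimated at 0.33 on the log2 scale (SE 0.23, adjusted p = 0.340) and Klf5 of 0.32 (SE 0.35, adjusted p = 0.536), while Klf1, Klf14 and Klf17 were under the filter. Of the 9 related Sp genes, 4 were tested and none passed by either measure, with Sp4 at -0.22 (adjusted p = 0.458) and Sp1 at 0.10 (adjusted p = 0.632). The median was 0.10 for the other Kruppel-like factors and 0.05 for the Sp genes.

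The genes whose log2 values were most like those of Klf4 over the 7 libraries, among 9620 genes with a mean of at least 100, were Adamts1 (Pearson r = 0.990), Plk3 (0.987) and Apold1 (0.981). All 3 were lower in the libraries labelled knockout, with log2 fold changes of -0.82, -1.43 and -0.86. Since these genes were chosen for following Klf4, which was itself lower, their direction follows from the choice and is no separate result. For Klf2 the most similar genes were Vasp (0.982), Lpin1 (0.963) and Snx18 (0.958), none of which passed the test. These correlations describe 7 libraries split by group, whose totals of normalised counts also differed between the groups, and no test was made of them.

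Several library measures moved with the labels. Slc2a1, the gene named by the knockout label, stood at 1127 ± 123 against 1075 ± 263 (log2 fold change -0.09, adjusted p = 0.738), so the tables do not show a lower level of the labelled target. Library totals ran from 11855652 to 13441728 for wild type, against 14592369 to 15731074, and 2794 to 6551 genes were listed at 0 against 7301 to 9306. Malat1 took 0.904% to 2.01% of the total against 0.220% to 0.471%, and the fraction from 1153 olfactory and vomeronasal receptor genes was 0.111% to 0.251% against 0.0446% to 0.0715%. These 4 measures each differed by a two-sided exact permutation test (p = 0.0286, the smallest that 35 splits allow, adjusted p = 0.0357 over 5 measures), and the fifth, the mitochondrial mRNA fraction, was 1.06% against 1.29% on average (exact permutation p = 0.2). Wild-type library 1 had the highest Malat1 and receptor fractions. The 10 endothelial markers summed to between 88515 and 114532 for wild type, against 118016 to 131379, with 2 higher and 1 lower. Smooth muscle markers summed to 34791 to 42096 against 55086 to 65175 with 5 of 6 higher, and erythroid markers to 1757 to 5507 against 4397 to 20253 with 5 of 5 higher. Fibroadipogenic markers summed to 3715 to 6856 against 8758 to 11839 with 2 of 6 higher, and satellite cell markers to 335 to 526 against 612 to 828 with 2 of 4 higher. None of the 6 muscle fibre (233 to 549 against 388 to 586), 5 pericyte (8190 to 16988 against 10001 to 14405) and 4 lymphatic markers (2078 to 2588 against 2419 to 2889) passed. Blood cell markers were sparse, at 192 to 282 against 233 to 394 for macrophages with 1 of 6 higher, 96.9 to 200.1 against 42.2 to 56.6 for lymphocytes with 1 of 2 lower, and 28.2 to 33.5 against 15.1 to 165 for neutrophils. The higher macrophage marker was Lyz2, at 62.9 ± 18.6 against 203.5 ± 59.3. The 6 tested macrophage markers had a median log2 fold change of -0.48, with 2 estimates above 0 and Cd68 at -1.19 (limma adjusted p = 0.058). Markers listed at 0 in some libraries included Adgre1, C1qa, Cd3e, Ms4a1, Nkg7, S100a8, Ly6g, Retnlg and Myod1, and no marker was at 0 in all. The part of these measures in the differences of the Kruppel-like factors was not tested.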

How the data were processed

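The authors deposited 1 table per library of normalised counts, an expression signal scaled between libraries. Named in the submitters' processing notes, without roles or versions, are featureCounts, kallisto, DESeq2, DESeq and the build GRCm39. Libraries were made from 10 ng of RNA with a Takara pico kit, per the labels. Low values did not resolve into whole reads, so no count model was run and no counting interval is given. Values were analysed as log2(normalised count + 1), which understates changes of low genes. Genes with a mean of at least 10 were tested with limma 3.58.1 in R 4.3.3 (lmFit, eBayes with trend), Benjamini-Hochberg adjusted over all 16931 genes at a threshold of 0.05. Differences are the knockout label minus wild type. Exonic lengths and overlaps were looked up by symbol in GENCODE vM21, an older build than the submitters', and promoters came from RefSeq GRCm38.p6.

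The members, gene lists, marker lists and tests were chosen with earlier results of these data known. Named were all 9 members, Slc2a1, up to 4 changed genes per list by p (or up to 2 where none changed), and the 3 genes most like Klf2 and Klf4. Some genes that this rule picks are not reported here. Mapk7, Mef2c, Nos3, Tsc22d3, Fkbp5 and Nr3c1 were named after their values were seen. Whether replicate numbers pair the groups is not known, and the main fit did not use them. The alternatives were 20 planned settings and 1 added after seeing the data, the removal of a trend on exonic length.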

Additional observations from a re-analysis of the deposited data

Results flagged for a closer look

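Klf13 had 1 library far from the others of its group. With the knockout label its values were 3789, 4511, 3694 and 3768 normalised counts, and the gap between the second library and the nearest other was 0.883 of the whole range. The 9 members were examined in this way in the group of 4 libraries, since the wild-type group of 3 is too small, and chance alone gives such a gap in about 1 of 20 groups.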

How the results depend on the processing

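The count of members called lower was 1 with the deposited scaling. It was 2 with a pseudocount of 5, a mean of at least 50, robust limma or array weights, 4 with the length trend removed (an alternative chosen after seeing the data), and 5 with quantile normalization, equal totals or a threshold of 0.10. It was 0 with no filter on low values, limma without trend, the replicate block or the receptor genes as a covariate, and 0 to 2 with a library left out. Of all tested genes, 5.53% were lower with the deposited scaling, 3.78% with quantile normalization, 9.61% with equal totals, 11.2% at a threshold of 0.10 and 6.90% with the length trend removed. This share was 6.90% with a pseudocount of 5, 4.75% with a mean of at least 50, 5.62% with robust limma and 4.70% with array weights. With a library left out it ran from 0.15% to 6.57%. The share was 0.51% with no filter, 0.10% without trend, 0.50% with the replicate block and 0% with the receptor covariate. These 4 settings thus called few or no genes of any kind lower, so the loss of calls there is not particular to the members. No member was called higher under any of the 21 alternatives. Klf4 kept its direction under all of them, with an adjusted p from 0.00399 to 0.996. It did not pass with no filter (-0.58, adjusted p = 0.0742), without trend (-0.58, adjusted p = 0.0832), with the replicate block (-0.54, adjusted p = 0.126) or with the receptor covariate (-0.72, adjusted p = 0.996), and it ranged from -0.67 to -0.54 with a library left out. The replicate block gave 35 genes higher and 84 lower over all genes. Whether its numbers pair the libraries is not known. Same-numbered deviations correlated at -0.105, -0.234 and -0.084 and the others at -0.113 to 0.139, values too few and too small to decide it. The fourth library labelled knockout has no partner.

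Klf2 passed with quantile normalization (-0.67), equal totals (-0.64), array weights (-0.49), a threshold of 0.10 (-0.42) and the length trend removed (-0.79). Klf6 passed under 4 of these, at -0.53, -0.58, -0.35 (threshold 0.10) and -0.48 (length trend). Klf7 passed at -0.54 (quantile), -0.62 (equal totals) and -0.40 (threshold 0.10), and without library 3 labelled knockout (-0.47, adjusted p = 0.044). It ranged from -0.47 to -0.32 with a library left out and was -0.19 with the receptor covariate. Klf11 passed at -0.61 (pseudocount 5), -0.62 (mean of at least 50, robust limma, threshold 0.10), -0.75 (quantile, and length trend) and -0.84 (equal totals), and without library 1 labelled knockout (-0.78, adjusted p = 0.039), and ranged from -0.78 to -0.46 with a library left out. Signs turned for Klf3 (-0.10 quantile, -0.18 equal totals, and -0.067 to 0.15 with a library left out), Klf9 (-0.017 equal totals, -0.039 receptor covariate) and Klf13 (-0.060 quantile, -0.14 equal totals, -0.060 receptor covariate). They also turned for Slc2a1 (-0.24 to 0.023 with a library left out), Klf15 (-0.0027) and Klf5 (-0.026) with the receptor covariate, and Sp1 (-0.051 quantile, -0.13 equal totals). The cause was not tested. Among all genes, leaving out wild-type library 1 left 19 higher and 24 lower.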

Other observations

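Within the libraries labelled knockout, Klf9 and Klf3 varied least among the members, with coefficients of variation of 1.57% and 2.99%, and Klf11 varied most, with 27.2%. In wild type, Klf2 varied most, with 24.3%, and Klf10 least, with 5.47%. Klf8, a repressor of the same family that was picked after its values were seen, lay at 91.6, 62.3 and 102 normalised counts in wild type and at 30.5, 115, 307 and 34.7 in the libraries labelled knockout, with a log2 fold change of -0.09 (adjusted p = 0.937).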
